A study of Mus musculus with 6 samples.

Results

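The HSP90 chaperone, its cochaperones and the heat shock factors were followed in the mouse pituitary through 10 genes: Hsp90aa1, Hsp90ab1, Chordc1, Ahsa1, Stip1, Cdc37, Ptges3, Fkbp4, Hsf1 and Hsf2. Their probes were found by name, as those whose annotation on the array is a RefSeq accession of one of these genes. The 10 genes themselves were chosen with earlier results of these data known. All 10 were on the array, with 13 probes in all, and all 10 stood among the 26890 genes and unnamed features tested. Ptges3 had 4 probes and each other gene had 1. Every one of the 13 probes was well above background on all 6 arrays, and none of their spots was marked as an outlier or as saturated.

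Transcripts were read with 6 Agilent arrays in a single colour, each hybridised with RNA from the pituitary of a separate mouse. The KO group comprised 3 Jmjd2a-/- (null) females, and the WT group comprised 3 Jmjd2a+/+ littermate females. All 6 were virgin C57BL6 mice aged 8 weeks, and their pituitaries were collected 24 h after soiled bedding of a stud male had been used to start the oestrous cycle. Jmjd2a, now named Kdm4a, encodes a demethylase of histone H3. The labels describe the mice as null without stating which exons are missing, and they name no Cre driver or promoter that would limit the loss to some cells. Since each array holds RNA of a whole gland, fewer cells of a type and less RNA per cell cannot be told apart.

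HSP90 is an abundant cytosolic chaperone that binds proteins late in their folding and keeps them ready for activation. Its work runs on a cycle of ATP binding and hydrolysis, which cochaperones start, slow or speed. Steroid receptors and many kinases are its clients, and in the pituitary these include the receptors through which steroids from the adrenal and the gonads feed back on the gland. HSP90 also holds heat shock factor 1 inactive, and this factor drives the transcription of many chaperone genes when proteins misfold. It binds DNA as a trimer, at arrays of the unit GAA and its inverted repeat TTC spaced by 2 bases.

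Promoter windows of 250 bases before to 50 bases after the start of a transcript were taken from RefSeq on GRCm38.p6, where 7 of the 10 genes had one. The windows were searched on both strands for 2 adjoining units, GAANNTTC or TTCNNGAA, and for 3, GAANNTTCNNGAA or TTCNNGAANNTTC, with matches allowed to overlap. Of all 32851 windows in the table, 15.1% held a match of 2 units, 1.96% held 2 or more such matches and 0.603% held a match of 3 units. The windows below show the gene with the largest difference between the groups (Chordc1), a cochaperone gene that also separated the groups but has no match (Stip1), and one with a single match that did not separate them (Cdc37). Capitals mark bases in a match of 2 units, and sequences run 5′ to 3′ on the strand of the gene.
Chordc1: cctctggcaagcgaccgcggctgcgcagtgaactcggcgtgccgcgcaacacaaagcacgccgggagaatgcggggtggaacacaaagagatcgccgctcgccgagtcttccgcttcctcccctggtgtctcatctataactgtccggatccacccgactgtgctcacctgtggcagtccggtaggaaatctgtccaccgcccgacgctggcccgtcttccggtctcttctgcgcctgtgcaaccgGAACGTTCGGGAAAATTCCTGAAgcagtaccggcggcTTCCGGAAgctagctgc
Stip1: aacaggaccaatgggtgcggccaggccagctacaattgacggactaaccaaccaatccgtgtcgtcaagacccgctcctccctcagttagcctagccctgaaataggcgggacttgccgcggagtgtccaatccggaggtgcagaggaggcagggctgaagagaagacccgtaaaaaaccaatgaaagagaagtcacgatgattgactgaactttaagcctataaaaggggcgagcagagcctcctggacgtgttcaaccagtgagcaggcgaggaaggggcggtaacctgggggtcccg
Cdc37: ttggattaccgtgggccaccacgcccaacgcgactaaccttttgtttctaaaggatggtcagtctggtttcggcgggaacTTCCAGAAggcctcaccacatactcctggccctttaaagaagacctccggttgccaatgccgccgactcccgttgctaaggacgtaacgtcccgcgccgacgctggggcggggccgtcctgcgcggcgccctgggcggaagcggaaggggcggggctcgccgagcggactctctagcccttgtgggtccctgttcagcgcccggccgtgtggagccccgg
The Chordc1 window (chr9:18292017-18292316, plus strand) held 5 matches of 2 units, of which 4 overlap in a run from 4 bases before the start to 18 bases after it. That run also contains 3 overlapping matches of 3 units, GAACGTTCGGGAA, TTCGGGAAAATTC and GAAAATTCCTGAA. The Cdc37 window (chr9:21149885-21150184, minus strand) held the single match TTCCAGAA, which begins 170 bases before the start, and that of Fkbp4 held GAAAGTTC, which begins 151 bases before it. No match of these letters was in the windows of Stip1 (chr19:7039977-7040276, minus strand), Ahsa1, Ptges3 or Hsf2. Hsp90aa1, Hsp90ab1 and Hsf1 were not in the table. A match describes letters in a window and is neither a site shown to be bound nor a cause.

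Values below are log2 spot signals relative to the 75th percentile of the same array, called log2 units, and a log2 fold change is KO over WT with its standard error from limma (n = 3 arrays per group). Because probes differ in how brightly they label, the level of one gene was not compared with that of another. Between 34636 and 40569 of the 55681 probes of an array were well above background. The signal at the 75th percentile ranged over arrays between 170 and 311 intensity units. KO arrays correlated with each other at 0.993 across features, WT arrays at 0.983 to 0.986 and KO with WT arrays at 0.984 to 0.989. All 7 pituitary hormone genes and all 7 pituitary transcription factor genes on the marker lists were well above background. Kdm4a, read by the brighter of its 2 probes, had 1.46, 1.21 and 1.37 log2 units on the KO arrays, against 2.14, 1.91 and 1.85 on the WT arrays. The KO values all lay below the WT values, as they did for 13.4% of all features. The log2 fold change was -0.62 ± 0.14 (limma adjusted p = 0.24; exact two-sided permutation p = 0.1, the smallest that 3 arrays against 3 allow). The dimmer probe was well above background on only 2 arrays and was not tested, with means of -4.96 in KO and -5.06 in WT. The signal left in KO mice does not test the labels, because the positions of the probes relative to the deletion are not known here.

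Chordc1 differed most among the genes of the HSP90 machinery. It read 1.86-fold higher in KO pituitaries, Stip1 1.3-fold and Ahsa1 1.16-fold, and for these 3 genes every KO array lay above every WT array. The remaining 7 genes overlapped between the groups. By limma with Benjamini-Hochberg adjustment over all features, 0 of the 10 genes passed an adjusted p under 0.05, against 0% of the 26890 features tested. At an unadjusted p under 0.05 there were 2 of the 10, Chordc1 and Stip1, both higher in KO, where 12.8% of all features passed in either direction (3.99% higher and 8.81% lower). Groups without overlap, all with KO higher, were found for 3 of the 10 genes, against 20.6% of all features in either direction, 7.23% with KO higher and 13.4% with KO lower. The median log2 fold change of the 10 genes was 0.003, beside -0.07 for all features, and 6 of the 10 lay above that median.

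**Figure D1:**
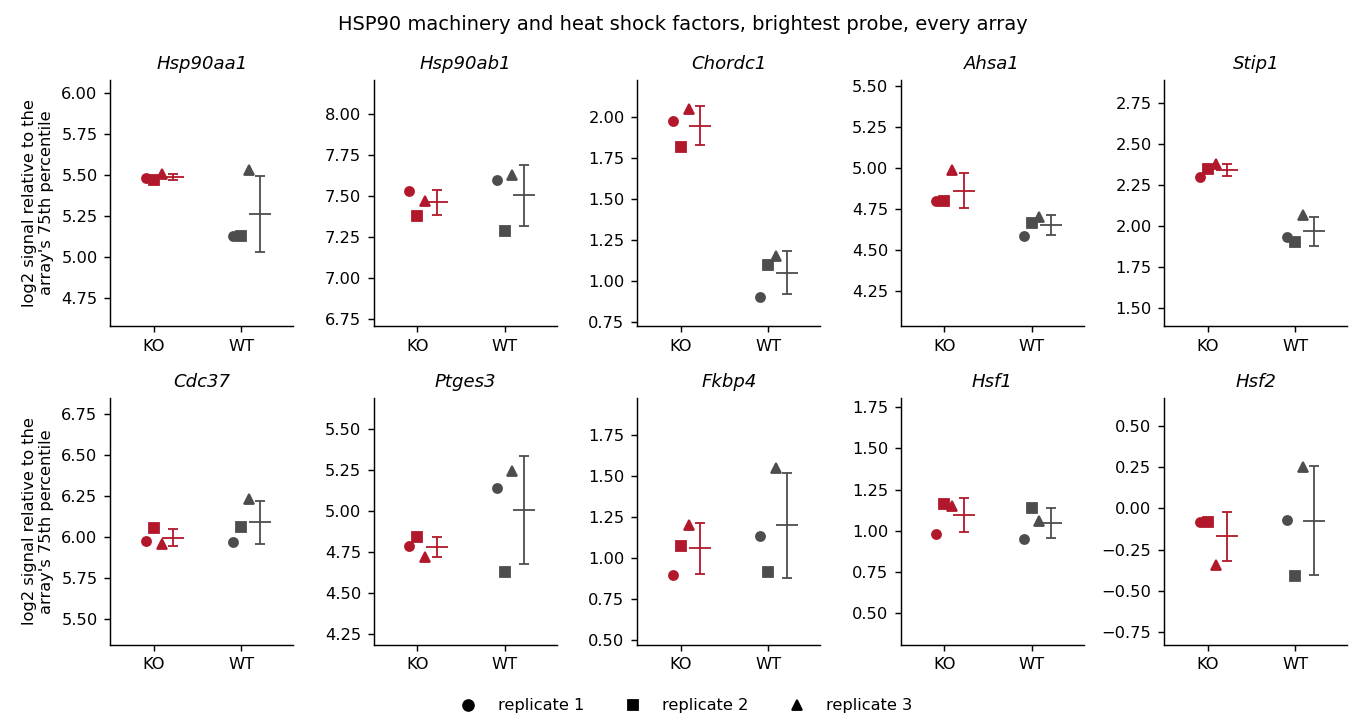
Log2 signal of the 10 genes (brightest probe) relative to the 75th percentile of each array, on the vertical axis, for the 3 KO arrays (red, left) and the 3 WT arrays (grey, right). Each point is an array, its shape gives the replicate number, and bars give the mean ± SD; every panel spans the same number of log2 units. All KO points lie above all WT points for Chordc1, Stip1 and Ahsa1.

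Of the cochaperone genes, Chordc1, which encodes a zinc-binding HSP90 partner also called morgana, differed most. Chordc1 read 1.98, 1.81 and 2.05 log2 units on the KO arrays, against 0.90, 1.10 and 1.15 on the WT arrays. The lowest KO array thus stood well above the highest WT array, and the arrays of each group lay close together. The means were 1.95 ± 0.12 in KO and 1.05 ± 0.13 in WT (SD, n = 3 each), a log2 fold change of 0.90 ± 0.13 (95% interval 0.58 to 1.21) and a fold of 1.86 (1.5 to 2.31). Before scaling, the spot gave 970, 820 and 1260 intensity units on the KO arrays and 319, 667 and 428 on the WT arrays, also without overlap. Of the 26890 features, 123 (0.457%) had a log2 fold change as high or higher, and Chordc1 stood at rank 41 by p. That share does not count falls of the same size. At an unadjusted p under 0.05 more features were lower in KO (8.81%) than higher (3.99%).

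Whether Chordc1 counted as changed depended on the processing. Its adjusted p was 0.177 with the values above. It was called with normexp background correction (log2 fold change 0.90, adjusted p = 0.0233, where 0.0893% of features were called), in the authors' value table (0.86, adjusted p = 0.021, 0.13% called) and with a variance trend and robust fitting (adjusted p = 0.0332, 0.104% called). Median centring (0.0707% of features called), a filter asking for all 6 arrays (0.0494%) and leaving out WT replicate 1 (0.00372%) called other features but 0 of the 10 genes. Over 18 tested alternatives the adjusted p ran from 0.021 to 0.544. The log2 fold change stayed above 0 in all 19 alternatives, between 0.72 and 1.07. Some of these could not change it: for a gene with 1 probe, other filters on dim probes, the mean of probes, the variance trend and both blocks return the reported estimate. Because the groups did not overlap, leaving out arrays, single slide rows and weights for arrays could change its size but not its sign. Median centring moved every gene up by the same amount. In slide row 1 alone (KO replicates 1 and 3, WT replicates 1 and 3) the log2 fold change of Chordc1 was 0.99. It was 0.72 in slide row 2, where only the second replicate of each group lay and no test was possible.

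Stip1 encodes the adaptor, also called HOP, that brings HSP70 and HSP90 together and passes clients between them. Stip1 had 2.30, 2.35 and 2.38 log2 units on the KO arrays, against 1.93, 1.90 and 2.06 on the WT arrays. The groups did not overlap, and the gap between them was wider than the spread within either group. Of all features, 6.2% had a log2 fold change as high as that of Stip1 or higher, again without counting falls of that size. The log2 fold change of Stip1 was 0.38 ± 0.11 (95% interval 0.10 to 0.65; adjusted p = 0.322). Over the alternatives it ran from 0.34 to 0.55 and was called in 0 of 18, with an unadjusted p of 0.0136 in the fit reported. By slide row it was 0.34 in row 1 and 0.44 in row 2.

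Ahsa1 encodes AHA1, which stimulates the ATPase of HSP90. Ahsa1 read 4.80, 4.80 and 4.99 log2 units on the KO arrays, against 4.59, 4.67 and 4.70 on the WT arrays. The KO arrays were the higher ones, but the nearest arrays of the 2 groups differed by less than the KO arrays did among themselves. The log2 fold change of 0.21 ± 0.12 had an interval that includes 0 (-0.07 to 0.49; adjusted p = 0.478) and ran from 0.13 to 0.39 over the alternatives.

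The genes of the chaperone itself overlapped between the groups. Hsp90aa1, the stress-inducible form, read 5.48, 5.47 and 5.51 log2 units on the KO arrays, against 5.13, 5.13 and 5.53 on the WT arrays. The KO arrays were almost equal, and WT replicate 3 stood above all of them while the other WT arrays lay below. Its log2 fold change was 0.22 ± 0.15 (95% interval -0.13 to 0.57; adjusted p = 0.525). In the authors' deposited value table the groups did not overlap, with 13.48, 13.33 and 13.46 in KO and 12.90, 12.97 and 13.23 in WT on the log2 scale of that table, and the log2 fold change was 0.39 (adjusted p = 0.211). Without WT replicate 3 it was 0.36 (adjusted p = 0.348). By slide row Hsp90aa1 read 0.17 in row 1 and 0.34 in row 2.

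Hsp90ab1, the form made at all times, had 7.53, 7.38 and 7.47 log2 units on the KO arrays, against 7.59, 7.29 and 7.63 on the WT arrays. The KO arrays lay inside the range of the WT arrays. The log2 fold change was -0.04 ± 0.14 (95% interval -0.37 to 0.29; adjusted p = 0.901), and its sign turned in 6 of 19 alternatives, among them quantile normalization (0.22) and the authors' value table (0.18). The 19 include filters, a probe rule, a variance trend and blocks that could not turn it.

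The relation between these paralogs was also taken within each array, where the scaling of the array cancels. Hsp90aa1 minus Hsp90ab1 was -2.05, -1.91 and -1.96 on the KO arrays, against -2.46, -2.16 and -2.09 on the WT arrays. The values are differences of log2 signals of unlike probes, so only their change between groups can be read. All KO values lay above all WT values, by 0.27 on average (SE 0.12), with an exact two-sided permutation p of 0.1, the smallest this design allows. The difference was 0.21 in the authors' value table, where the groups overlapped (exact permutation p = 0.3), and 0.15 without WT replicate 1. The probe sequences were not used here, so signal from one paralog at the probe of the other was not tested.

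**Figure D2:**
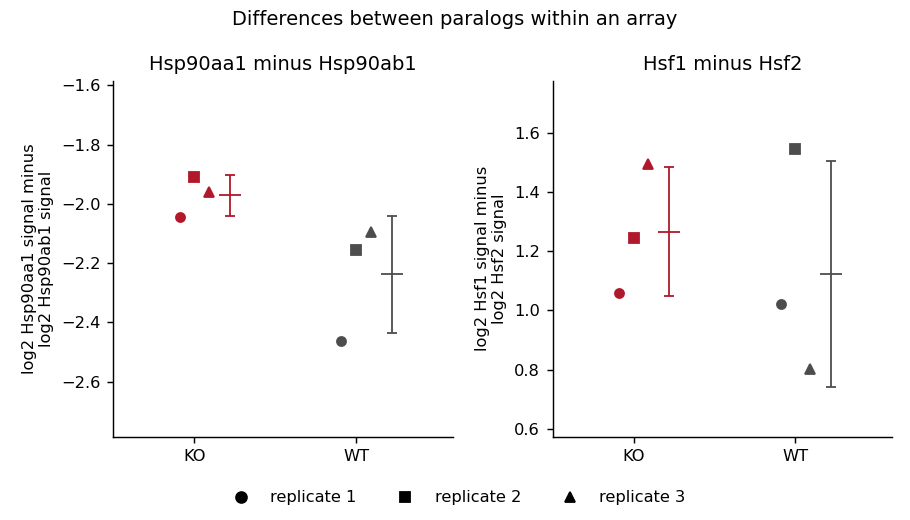
Difference of log2 signals within an array, Hsp90aa1 minus Hsp90ab1 (left panel) and Hsf1 minus Hsf2 (right panel), for the 3 KO arrays (red) and the 3 WT arrays (grey), with mean ± SD bars. The KO values lie above the WT values in the left panel by 0.27 on average, and the groups overlap in the right panel.

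The other cochaperone genes had KO values within or close to the WT range. Cdc37, which delivers kinases to HSP90, read 5.97, 6.06 and 5.96 log2 units on the KO arrays, against 5.97, 6.06 and 6.23 on the WT arrays. Only WT replicate 3 stood apart, and the log2 fold change was -0.09 ± 0.12 (95% interval -0.39 to 0.20; adjusted p = 0.741). Fkbp4, an immunophilin that works with steroid receptors, had 0.90, 1.07 and 1.20 log2 units on the KO arrays, against 1.13, 0.91 and 1.55 on the WT arrays. WT replicate 3 was again the highest, and the log2 fold change was -0.14 ± 0.19 (95% interval -0.59 to 0.31; adjusted p = 0.745). Without that array it was 0.03.

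Ptges3 encodes p23, which stabilises the closed, ATP-bound form of HSP90. Its brightest probe read 4.78, 4.84 and 4.72 log2 units on the KO arrays, against 5.14, 4.63 and 5.24 on the WT arrays. The KO arrays lay between WT replicate 2, which was low, and the other WT arrays. The log2 fold change was -0.22 ± 0.18 (95% interval -0.65 to 0.21; adjusted p = 0.594). When every probe was fitted alone, the 4 probes of Ptges3 gave -0.22, -0.08, -0.13 and -0.28, with adjusted p from 0.540 to 0.832, and the groups overlapped at each. In slide row 1 the brightest probe gave -0.44, and in slide row 2, with 1 array per group, 0.21.

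**Figure D3:**
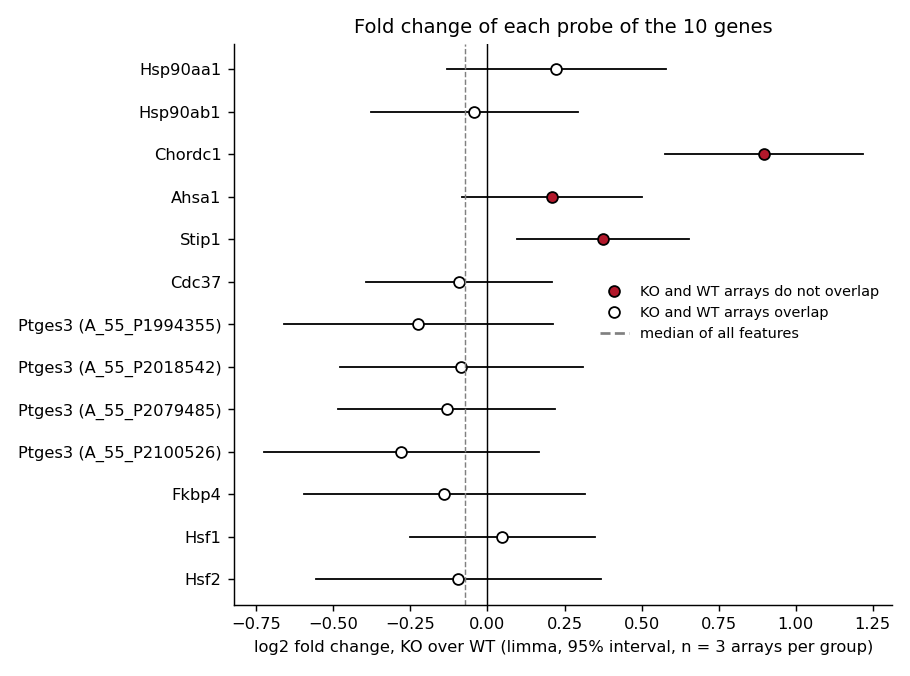
Log2 fold change, KO over WT, of each of the 13 probes (horizontal axis) with its 95% interval from limma fitted to every probe alone, n = 3 arrays per group. Filled points mark probes whose KO and WT arrays do not overlap, and the dashed line is the median of all features at -0.07. The intervals of Chordc1 and Stip1 lie above 0, and the 4 probes of Ptges3 lie on the same side of 0.

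Neither heat shock factor gene separated the groups. Hsf1, the main activator of the stress response, had 0.98, 1.16 and 1.15 log2 units on the KO arrays, against 0.95, 1.14 and 1.06 on the WT arrays. The groups covered nearly the same range, and the log2 fold change was 0.05 ± 0.12 (95% interval -0.24 to 0.34; adjusted p = 0.87). Hsf2, a related factor with roles in development, read -0.08, -0.08 and -0.34 log2 units on the KO arrays, against -0.07, -0.41 and 0.25 on the WT arrays. The WT arrays spread over a wider range that included all KO arrays, and the log2 fold change was -0.09 ± 0.19 (95% interval -0.55 to 0.36; adjusted p = 0.835). Within an array, Hsf1 minus Hsf2 was 1.06, 1.24 and 1.49 in KO and 1.02, 1.55 and 0.80 in WT, a difference of 0.14 (SE 0.25; exact permutation p = 0.7) that was -0.02 without WT replicate 3.

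The 10 genes spread more widely over the WT arrays than over the KO arrays. The SD was larger among WT than among KO arrays for 8 of the 10 genes, with a median SD of 0.09 in KO and 0.16 in WT, beside 0.15 and 0.23 over all features. Which WT array was highest depended on the scaling. In the authors' value table it was WT replicate 2 for Chordc1, Ahsa1 and Cdc37, WT replicate 1 for Hsp90ab1 and WT replicate 3 for the rest. Before scaling it was WT replicate 2 for all 10 genes. Relative to the 75th percentile, WT replicate 3 was the highest WT array for 9 of the 10 genes and the highest of all 6 arrays for 6 of them. The same array carried transcripts of other cells: the summed linear signal of the 5 neutrophil markers, in multiples of the array's 75th percentile, was 1.22 to 1.74 in KO and 1.95 to 14.3 in WT, with WT replicate 3 highest. That of the 5 markers of dividing cells was 0.867 to 1.35 in KO and 2.36 to 10.1 in WT, and that of the 5 Schwann cell markers 12.9 to 13.8 in KO and 11.8 to 18.3 in WT, both again highest on WT replicate 3. All markers of these 3 lists were well above background on at least 3 arrays. The summed signal of the 7 pituitary transcription factor genes was 90.9 to 103 in KO and 81.7 to 89.0 in WT, without overlap, but of the 7 genes taken singly 3 had a log2 fold change above 0 and 4 below (median -0.01), and only Lhx3 separated the groups. On every KO array the neutrophil and dividing cell sums were below those of every WT array, so they separate the groups with or without WT replicate 3, and their part in the values of the 10 genes was not tested. Without WT replicate 3 the log2 fold change of Chordc1 was 0.95, of Stip1 0.42, of Ahsa1 0.24, of Hsp90aa1 0.36, of Fkbp4 0.03 and of Hsf2 0.07.

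The lists around the 10 genes give the setting, with the median of all features at -0.07. Of the heat shock factor target genes, which encode HSP70 family chaperones, their partners and small heat shock proteins, 17 of 18 were tested and 0 were called. At an unadjusted p under 0.05 there were 6 higher and 0 lower, and 7 separated the groups with KO higher and 3 with KO lower, around a median of 0.19. Over all features these shares were 3.99% higher and 8.81% lower by p, and 7.23% higher and 13.4% lower without overlap. Hspa1a, the stress-inducible HSP70, read -0.72, -0.85 and -0.16 log2 units in KO, against -2.95, -2.40 and -2.70 in WT, a log2 fold change of 2.11 ± 0.23 (adjusted p = 0.0954) that was 1.12 with normexp correction and 1.18 in the authors' value table. Its near-identical copy Hspa1b may add to that signal. Hsph1, a nucleotide exchange factor for HSP70, had 1.47 ± 0.16 (adjusted p = 0.0954), and the J-domain genes Dnaja1 and Dnajb1 had 1.20 ± 0.14 (adjusted p = 0.0976) and 1.24 ± 0.21 (adjusted p = 0.218). For each of these 4 genes every KO array lay above every WT array, as it did for Chordc1, and each of the 4 was called with normexp correction and in the authors' value table.

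Of the other HSP90 paralogs and cochaperones, 26 of 27 were tested and 0 were called, with 4 higher and 1 lower at an unadjusted p under 0.05 (3.99% and 8.81% of all features) and a median of 0.06. The groups did not overlap for 5 with KO higher and 4 with KO lower (7.23% and 13.4% of all features). Cdc37l1, a relative of Cdc37, read 0.74, 0.87 and 0.80 log2 units in KO, against 0.07, 0.20 and 0.40 in WT. Its groups did not overlap, with a log2 fold change of 0.58 ± 0.13 (adjusted p = 0.242), while those of Cdc37 overlapped. Fkbp5, an immunophilin that restrains the glucocorticoid receptor, had 0.38 ± 0.13 (adjusted p = 0.347). Tsc1, which also acts as an HSP90 cochaperone, had 0.35 ± 0.13 (adjusted p = 0.363), and Unc45b, a myosin chaperone of muscle, had -0.48 ± 0.18 (adjusted p = 0.362). Of 5 other heat shock factors and HSF1 regulators 3 were tested, Hsf4 at 0.20 ± 0.14, Hsbp1 at -0.07 ± 0.14 and Hsf2bp at -0.01 ± 0.25. At an unadjusted p under 0.05 there were 0 of these 3, beside 3.99% higher and 8.81% lower over all features.

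Among the genes of HSP90 clients, limma called 0. All 7 steroid and aryl hydrocarbon receptor genes were tested, with a median of 0.11, 0 called and 0 at an unadjusted p under 0.05. Over all features 3.99% were higher and 8.81% lower at that p. The groups did not overlap for 2 of the 7 with KO higher and 0 with KO lower (7.23% and 13.4% of all features). The oestrogen receptor gene Esr1 read 2.89, 2.77 and 2.80 log2 units in KO, against 2.52, 2.67 and 2.34 in WT, without overlap (log2 fold change 0.31 ± 0.13, adjusted p = 0.392). Ahr, which encodes the aryl hydrocarbon receptor, had 0.13 ± 0.12 and the second oestrogen receptor gene, Esr2, had -0.21 ± 0.26. Of 12 client kinase genes 11 were tested, with a median of -0.04 and 0 called. At an unadjusted p under 0.05 there were 1 higher and 0 lower (3.99% and 8.81% of all features). The groups did not overlap for 2 with KO higher and 0 with KO lower (7.23% and 13.4% of all features). Ripk1, a kinase of cell death signalling, had 0.64 ± 0.21 (adjusted p = 0.337), while Cdk4 had -0.35 ± 0.16, Egfr 0.24 ± 0.12 and Src -0.55 ± 0.28. These are values of the brightest probe. With the mean of a gene's probes, Egfr had 0.0044 and Cdk4 -0.22. Src was dim, with a mean of -4.35 log2 units in KO and -3.81 in WT, and had -0.30 with normexp correction.

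**Figure D4:**
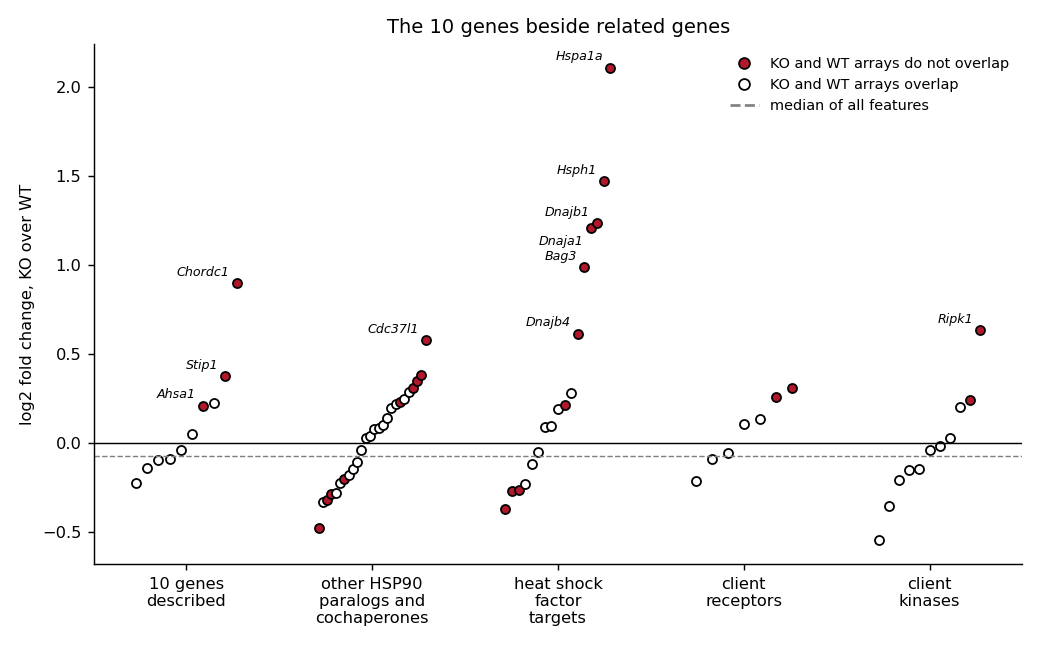
Log2 fold change, KO over WT, of every tested gene of the 10 genes described and of 4 related lists (horizontal axis), each point a gene. Filled points mark genes whose KO and WT arrays do not overlap, and the dashed line is the median of all features at -0.07. Chordc1, at 0.90, stands above the other 9 genes and below Hspa1a, Hsph1, Dnaja1, Dnajb1 and Bag3 (0.99), the last named after its value was seen.

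Among 16460 genes, those most like Chordc1 over the 6 arrays by Pearson correlation included Rbm12b2 (0.995), the heat shock factor target Dnaja1 (0.995) and Rnf6 (0.992). Of the other members of the machinery, Stip1 came at place 94 (0.962), Ahsa1 at 401 (0.905) and Hsp90aa1 at 1965 (0.718). Most like Hsp90aa1 were Ywhag (0.997), Carnmt1 (0.987), Gas2 (0.987), Abitram (0.985) and Phf21b (0.983). These correlations describe 6 arrays that share 2 groups, so genes that separate the groups in the same direction score high against each other. Hsp90aa1 overlapped between the groups, so this does not account for the genes most like it.

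The sign of the fold change was kept over the alternatives for some of the 10 genes and not for others. Chordc1, Stip1, Ahsa1, Hsp90aa1 and Hsf1 stayed above 0 in all 19 alternatives, with Hsf1 reaching 0.00010 without WT replicate 1. The 19 include settings that return the reported estimate for a gene with 1 probe, where the sign could not turn. These are other filters on dim probes, the mean of probes, the variance trend and both blocks. For Chordc1, Stip1 and Ahsa1, whose groups did not overlap, leaving out arrays, single slide rows and array weights could not turn the sign either. Median centring moved every gene up by the same amount, so it could turn no gene that lay above 0 as reported. Hsp90ab1, Cdc37, Ptges3, Fkbp4 and Hsf2 lay below 0 as reported, and each turned in at least 1 of the 19. Median centring over all probes put the median of all features at 0.10, where it was -0.07 as reported, and the turns under this setting follow from that shift. The authors' value table put the median at -0.01, and the cause of the other turns was not tested. Of the features at an unadjusted p under 0.05, 68.8% were lower in KO as reported, against 22.9% with median centring, 42.9% with quantile normalization and 46.8% in the authors' value table.

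**Figure D5:**
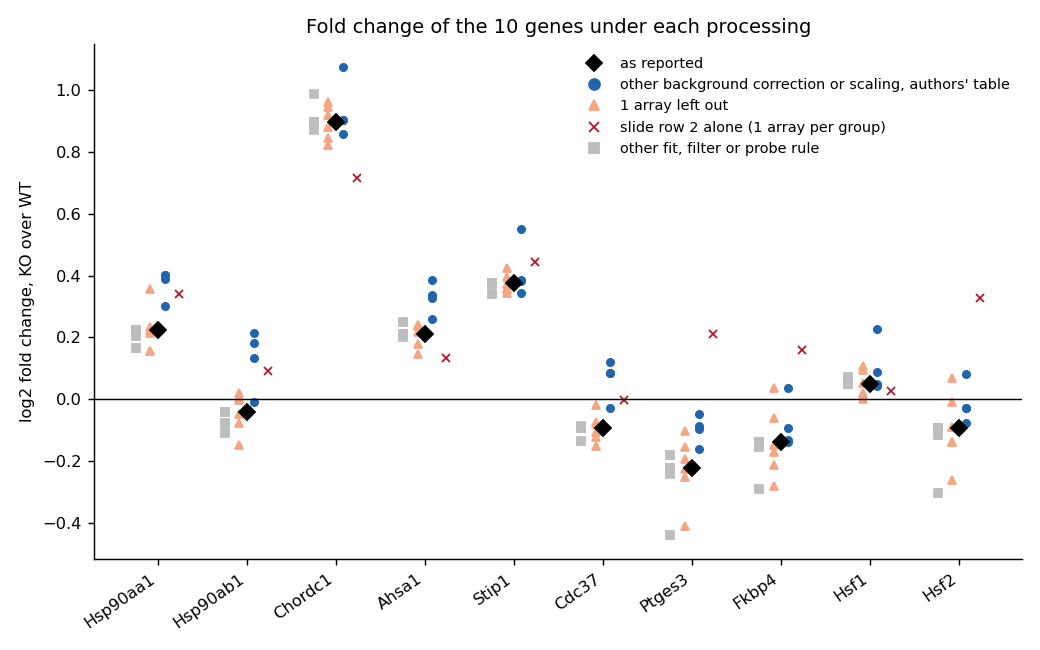
Log2 fold change, KO over WT, of the 10 genes (horizontal axis) as reported and under each alternative processing, with symbols grouped by the kind of alternative. Chordc1 keeps values from 0.72 to 1.07 and Stip1 from 0.34 to 0.55, while Hsp90ab1, Cdc37, Ptges3, Fkbp4 and Hsf2 have values on either side of 0.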

How the data were processed

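Per the file headers, Agilent Feature Extraction 11.0.1.1 wrote the deposited intensity values (gProcessedSignal), which were background-subtracted but not normalized between arrays, and all 6 arrays sat on 1 slide read in 1 scan. The authors also deposited a table of log2 values for 29154 spots, whose columns have medians between 8.25 and 8.26. How it was normalized is not stated in the labels, although the submitters' processing notes list limma. Per the labels' protocols, RNA integrity numbers were at least 9.9.

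Control and outlier spots were left out, log2 signals of repeated spots were averaged, and values were set relative to the 75th percentile of their array. Of 55681 probes, the 36742 that were well above background on 3 or more arrays were used, and a gene was read by its brightest probe. The RefSeq gene table of GRCm38.p6 gave symbols for 27656 probes (20972 symbols), and of the 26890 features tested 16464 had one. The comparison used lmFit and eBayes of limma 3.58.1 (two-sided, R 4.3.3) and was adjusted by Benjamini-Hochberg over all features, with calls at an adjusted p under 0.05. Differences within an array were compared by exact permutation over the 10 splits of the arrays. The number of arrays limits the precision, and the fit was tested on simulated data. Named genes were the 10 members, Kdm4a, the 4 genes with the smallest p of each related list, and the 5 genes most like Chordc1 and Hsp90aa1; 3 genes that this rule took are not reported here. The members, lists and rule were chosen with earlier results of these data known. The alternatives were normexp (offset 50, on median spot brightness), quantile or median scaling between arrays, the authors' value table, other filters on dim probes, other probe rules, eBayes with a variance trend and robust, weights for arrays, a block for slide row or for replicate number, each slide row alone, and leaving out each array. Same-numbered arrays deviated from their group means with correlations of 0.15, -0.18 and -0.08, so the numbers were not taken as pairs.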

Additional observations from a re-analysis of the deposited data

How the results depend on the processing

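Against 0 of the 10 genes and 0 of all features called as reported (15 features at an adjusted p under 0.1), 1 gene, Chordc1, was called with normexp, in the authors' value table and with a variance trend and robust fit, among 24, 27 and 28 features in that order. Median centring called 19 features and a filter asking for all 6 arrays called 12, with 0 of the 10 genes in either. Leaving out each array in turn called 0 to 1 features (1 without WT replicate 1) and 0 of the 10 genes. The count of genes without overlap, 3 as reported, was 5 with quantile normalization, 6 in slide row 1 alone, where fewer arrays have to be separated, and 3 to 6 without single arrays (6 without WT replicate 2). The share of all features without overlap was taken only for the values as reported (20.6% in either direction). The counts under other settings thus have no such share beside them and are not read as results about the 10 genes. With the replicate block 0 features were called, and Chordc1 read 0.90 ± 0.14 on the log2 scale (adjusted p = 0.423). The block changed no call. Hsf1 minus Hsf2 turned to -0.30 in slide row 2 and ran from -0.017 (without WT replicate 3) to 0.35 without single arrays, and the cause was not tested. Signs also turned as follows, and outside median centring the cause was not tested. Quantile normalization gave 0.22 for Hsp90ab1, 0.12 for Cdc37 and 0.42 for Hsf2bp. Median centring, which moved every gene up by the same amount, gave 0.13 for Hsp90ab1, 0.084 for Cdc37 and 0.037 for Fkbp4. It gave 0.083 for Hsf2, 0.11 for Hsbp1 and 0.17 for Hsf2bp. The authors' value table gave 0.18 for Hsp90ab1 and 0.085 for Cdc37. Slide row 2 alone gave 0.092 for Hsp90ab1, 0.21 for Ptges3, 0.16 for Fkbp4, 0.33 for Hsf2, 0.22 for Hsf2bp and 0.010 for Cdk4. Over the fits without single arrays, Hsp90ab1 ran from -0.15 to 0.019, Fkbp4 from -0.28 to 0.035, Hsf2 from -0.26 to 0.070, Hsbp1 from -0.14 to 0.0064, Hsf2bp from -0.21 to 0.21 and Esr2 from -0.41 to 0.081. The highest values of Hsp90ab1, Fkbp4, Hsf2 and Hsf2bp came without WT replicate 3, that of Hsbp1 without KO replicate 1 and that of Esr2 without WT replicate 1. Normexp lowered the log2 fold change of Hspa1a to 1.12, and the authors' value table put it at 1.18.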

Other observations

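Matches of 3 heat shock units like those of Chordc1 were also looked for among all tested genes with a RefSeq promoter window, as a description with no test. Of the 69 tested genes whose window held such a match, 9 (13%) separated the groups with KO higher and 6 (8.7%) with KO lower, around a median log2 fold change of 0.02. Of the 12967 without one, 9.71% separated them with KO higher and 12.6% with KO lower, around a median of -0.03. Those 69 include Chordc1, whose matches prompted the search, and the heat shock factor targets Hsph1 (1.47), Hspe1 (-0.23) and Hspd1 (-0.05). The groups overlapped for Hspe1 and Hspd1. Of the 65 outside the lists used here, 7 (10.8%) separated the groups with KO higher and 9.23% with KO lower. At an unadjusted p under 0.05, 1.54% of these 65 were higher and 7.69% lower, against 5.16% and 7.55% of the genes without a match. Of all 69, 3 (4.35%) were higher and 5 (7.25%) lower at that p. The 3 with the smallest p, chosen after their values were seen, were Hsph1, Chordc1 and Myoc (0.71 ± 0.14, adjusted p = 0.228), all higher in KO. Next by p came the 5 that were lower, each without overlap between the groups. They were Rps18 (-0.43), H2ac6 (-0.41), Mettl23 (-0.33), Cep57 (-0.39) and Uchl1 (-0.46). Of the 15 heat shock factor target genes with a window, 10 held a match of 2 units and 3 held one of 3 units.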
